A study of Arabidopsis thaliana with 8 samples.

Results

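The seedling transcriptome of nrpe1, a mutant in the largest subunit of RNA polymerase V, was compared with that of wild type (WT) in Arabidopsis thaliana. The genes compared are the entries of the deposited nrpe1 table with at least 1 FPKM (fragments mapped per kilobase of transcript, scaled to the fragments mapped in the library) in the nrpe1 library or in WT replicate 1, which are 19904 of 34133 entries (58.3%). The nrpe1 library (genotype label nrpe1, allele not given in the sources used here) and WT replicate 1 (genotype label WT) both came from whole 10-day-old seedlings in the Col-0 background, raised on plates in long days, and poly(A) RNA was sequenced. There is 1 library on each side. The other libraries of the series, used only for levels side by side, are of the same age and background: mom1 replicate 1 and the library labelled pial1/2, which are tabulated against the same WT replicate 1, and mom1 replicate 2, pial2, mom1pial2 and WT replicate 2. In the library labelled pial1/2, PIAL1 was at 11.3 FPKM and PIAL2 at 4.79, against 11.7 and 6.47 in WT replicate 1. The authors' deposited table for that library called neither gene, so the levels of PIAL1 and PIAL2 do not bear out its label. These levels alone cannot decide its genotype, which was not tested. The library was not at the WT level throughout. Summed over the 16 known silenced loci listed for the results below, it stood at 96.0 FPKM. The same sum was 111.9 in mom1 replicate 1 and 9.09 in WT replicate 1. The labels do not say how many seedlings or which cultures went into a library.

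RNA polymerase V is a plant-specific polymerase of RNA-directed DNA methylation. Its transcripts stay at the locus and act as a scaffold for ARGONAUTE4 loaded with small interfering RNAs, which brings the methyltransferase DRM2 to the same DNA. The pathway is known for keeping transposons and repeats near genes silent, and a few genes, ROS1 among them, are known to need promoter methylation for their expression.

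Because there is 1 library a side, no spread between replicates could be measured, and no test of the genotype was made. A difference is given as the log2 ratio of nrpe1 over WT replicate 1 on FPKM plus 1, which understates the change of low genes, and a gene is counted when that ratio reaches 1 (2-fold) in either direction. The q-values quoted are those of the authors' deposited table, and they compare these 2 libraries and not the genotypes. Levels from different tables were scaled separately. In bulk seedlings, fewer cells of a type and less RNA per cell cannot be told apart.

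The sequences upstream of 3 genes on which the comparison turns are shown first, since methylation acts on such DNA (TAIR10.1, whose chromosome lengths hold all the TAIR10 intervals of the files). For ROS1 and QQS they are the 300 bases before the start of the gene, with each CG, a symmetrical methylation site, in capitals. Other methylation sites are not marked. Among genes with an interval of their own and an authors' q-value below 0.05, ROS1 and QQS had the lowest ratios of nrpe1 to WT. ROS1 is on the minus strand at chr2:15314808-15315107 and QQS on the plus strand at chr3:12348747-12349046. For SDC, which is on the plus strand, they are the 300 bases that lie beyond the first 300 before the start, at chr2:7681783-7682082, and capitals mark 16-base words that recur within the window.
ROS1: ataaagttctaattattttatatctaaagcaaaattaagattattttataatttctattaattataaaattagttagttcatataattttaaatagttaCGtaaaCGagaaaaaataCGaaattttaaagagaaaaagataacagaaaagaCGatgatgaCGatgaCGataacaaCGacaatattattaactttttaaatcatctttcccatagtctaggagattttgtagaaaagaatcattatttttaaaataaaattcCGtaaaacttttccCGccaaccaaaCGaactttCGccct
QQS: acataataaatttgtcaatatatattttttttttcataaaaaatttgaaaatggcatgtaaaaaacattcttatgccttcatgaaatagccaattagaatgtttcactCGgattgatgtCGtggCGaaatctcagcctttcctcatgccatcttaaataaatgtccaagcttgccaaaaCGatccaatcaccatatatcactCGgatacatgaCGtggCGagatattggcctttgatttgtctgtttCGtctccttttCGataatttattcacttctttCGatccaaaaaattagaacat
SDC: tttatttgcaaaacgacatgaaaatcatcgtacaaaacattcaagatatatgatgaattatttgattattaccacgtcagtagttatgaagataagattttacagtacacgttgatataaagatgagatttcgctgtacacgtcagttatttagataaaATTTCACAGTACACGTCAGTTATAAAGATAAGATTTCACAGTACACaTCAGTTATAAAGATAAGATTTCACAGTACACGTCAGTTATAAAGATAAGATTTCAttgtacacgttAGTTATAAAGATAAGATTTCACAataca
The ROS1 window held 11 CG and the QQS window 10, against a median of 6 over the 28057 windows of entries that share no interval, and 17.2% of windows held at least 11 and 22.1% at least 10. In the SDC window the recurring words covered 124 bases, most often at a spacing of 32 bases, and 7.82% of 28067 windows at that place held any recurring 16-base word. These are descriptions of the reference sequence, and methylation was not measured here.

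NRPE1 (AT2G40030, chromosome 2, 16714494 to 16723583), the mutated gene, stood at 1.16 FPKM in nrpe1, against 4.61 FPKM in WT replicate 1. The 5 libraries labelled as other mutants lay between 2.45 and 3.54 FPKM and WT replicate 2 at 3.01, so nrpe1 was the lowest of the 8. The log2 ratio was -1.38, and -0.64 with a pseudocount of 5, and the authors' deposited table lists a q-value of 0. The other Pol IV and Pol V subunits measured, NRPD1, NRPD2, NRPE5, NRPE7 and NRPD4, had log2 ratios between -0.27 and 0.38, and the authors' deposited table called none of them. The transcript thus matched the label of the library.

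Most genes stood near the same level in nrpe1 and WT. The median log2 ratio was 0, the middle 50% of genes lay between -0.09 and 0.10 and the middle 95% between -0.40 and 0.52. At least 2-fold higher in nrpe1 were 182 genes (0.914%) and at least 2-fold lower were 99 (0.497%), together 1.41%. With a pseudocount of 5 in place of 1 the counts were 81 and 50, and with one of 0.1 they were 291 and 144, since low genes weigh less or more. For genes with an interval of their own and an authors' q-value below 0.05, ratios just inside the 2-fold limit were 1.01 and -1.004. Those just outside were 0.99 and -0.996. Among the genes past 2-fold, the authors' deposited table gave q-values below 0.05 to 87 of the higher and 20 of the lower genes, and with no limit on the ratio to 242 higher (1.22%) and 142 lower (0.713%) of the genes measured. In the comparisons that share WT replicate 1, at least 2-fold higher were 212 genes (1.06%) in mom1 replicate 1 and 168 (0.847%) in the library labelled pial1/2, and lower were 124 (0.623%) and 106 (0.534%).

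Many of the 2-fold differences rest on genes listed at 0 in a library. Of the 182 higher genes 75 were listed at 0 in WT replicate 1, and of the 99 lower genes 59 were listed at 0 in nrpe1. Entries under 200 bases, many of them annotated as microRNA, small nucleolar RNA or tRNA genes, made up 222 of the genes measured but 58 of the higher and 55 of the lower ones, and the authors' deposited table called 3 and 0 of these. Without the short entries 124 genes were higher and 44 lower. The step of low FPKM values gave the same worth of 1 fragment in both libraries, at 344 of 1038 low entries, so 1 fragment counted alike in both, but the depth in fragments is unknown.

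The nrpe1 library was the highest of all 8 for 109 of the 182 higher genes, against 15.4% of all genes measured, and the lowest of all 8 for 23 of the 99 lower genes, against 10.0%. With q-values below 0.05 in the authors' deposited table these were 62 of 87 and 16 of 20. The choice of genes high in nrpe1 raises these counts by itself. WT replicate 2, from a second set of libraries, differed at least 2-fold from WT replicate 1 for 14.3% of genes. LHY, a morning gene of the circadian clock, was at 2.47 FPKM in nrpe1, beside 1.97 in WT replicate 1 and 156 in the second WT library. At least 2-fold above WT replicate 2 as well stood 133 of the 182 higher genes, and 24 of the 99 lower genes stood at least 2-fold below it. The same choice of genes raises these counts, and the share over all measured genes was not computed.

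**Figure D1:**
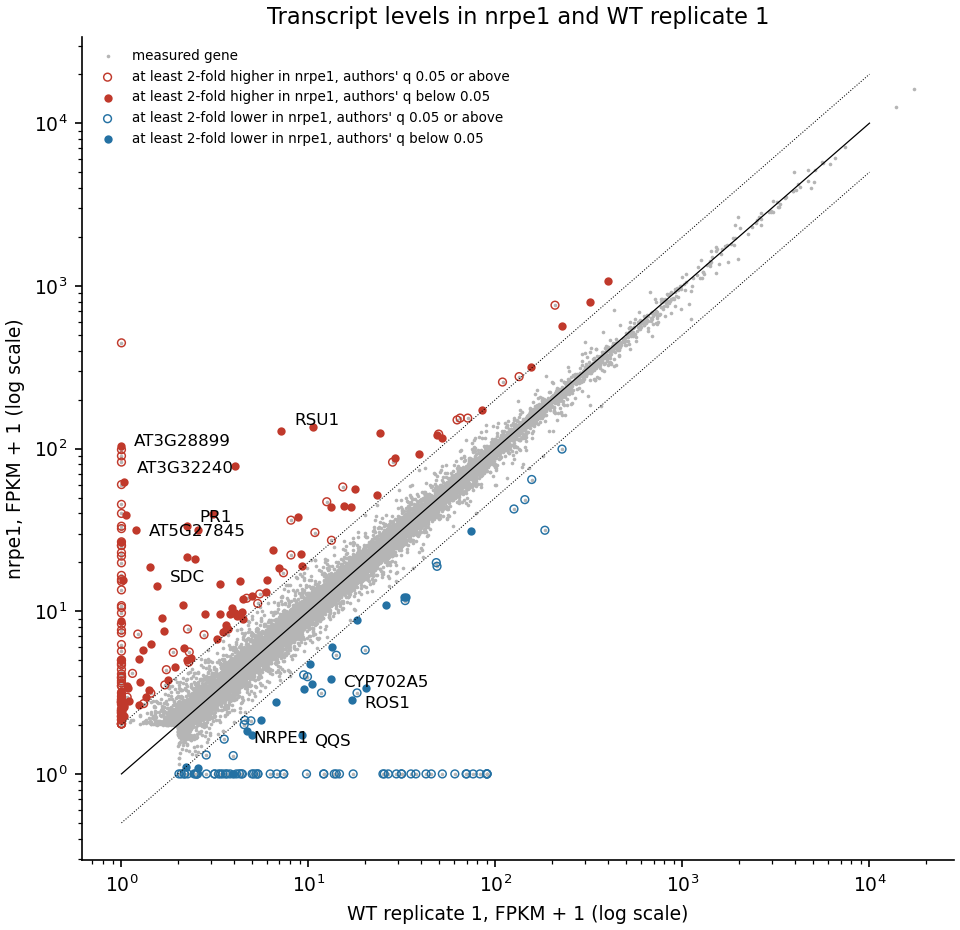
Levels of the 19904 measured genes in nrpe1 (y axis) and WT replicate 1 (x axis), as FPKM plus 1 on log scales; the solid line marks equal levels and the dotted lines 2-fold. Red marks the 182 genes at least 2-fold higher in nrpe1 and blue the 99 lower, filled where the authors' q-value is below 0.05, and the columns of points at 1 are genes listed at 0 in that library.

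ROS1 (AT2G36490, chromosome 2, 15308021 to 15314807), a DNA glycosylase that removes methylated cytosine, had the lowest ratio of the genes called by the authors whose interval no other entry shares. It stood at 1.84 FPKM in nrpe1, against 16.1 in WT replicate 1, while WT replicate 2 was at 14.5. The 5 libraries labelled as other mutants lay between 12.4 and 16.3 FPKM, so that nrpe1 stood apart from all 7. The log2 ratio was -2.59, with a q-value of 0 in the authors' deposited table. Its relatives and partners in active demethylation did not share this: of the 10 genes listed 1 was past 2-fold, and the other 9 had ratios between -0.10 and 0.34. IDM2, a partner of the demethylation complex, was at 1.59 FPKM in nrpe1 and 1.05 in WT replicate 1 but shares its interval with another entry.

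QQS (AT3G30720, chromosome 3, 12349047 to 12349832), a gene found in Arabidopsis that affects starch content and is known for differing between plants by its methylation, also lay below WT. It stood at 0.727 FPKM in nrpe1 and 8.22 in WT replicate 1, a log2 ratio of -2.42 with a q-value of 1.7e-07 in the authors' deposited table. In the comparisons with the same WT library it stood above WT, at 39.9 FPKM in mom1 replicate 1 and 16.2 in the library labelled pial1/2. WT replicate 2 was at 6.07 FPKM, so nrpe1 was the lowest of the 8 libraries.

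Most other genes of the machinery were near their WT level, with AGO9 the exception past 2-fold. Of 29 listed genes of RNA-directed DNA methylation 25 were measured, with a median ratio of 0.05, 14 above 0 and 11 below. The authors' deposited table called DCL4, a dicer of small RNAs, higher, at 8.90 FPKM in nrpe1 and 6.70 in WT replicate 1 (log2 ratio 0.36), and AGO9, an Argonaute of the germ line, lower. AGO9 was at 0.109 FPKM in nrpe1 and 1.22 in WT replicate 1, a log2 ratio of -1.004. The libraries labelled as other mutants were at 0.0660 to 0.171 and WT replicate 2 at 0.321 FPKM, so WT replicate 1 stood above all other libraries. KTF1, which binds Pol V transcripts, was at 13.3 FPKM in nrpe1 and 16.0 in WT replicate 1, and DMS3, which helps Pol V onto DNA, was at 7.92 and 6.74 in the same libraries. Of 19 genes for maintenance methylation and heterochromatin (21 listed) 0 were past 2-fold and the authors' deposited table called none. DDM1, a chromatin remodeller, was at 8.54 FPKM in nrpe1 and 10.0 in WT replicate 1.

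**Figure D2:**
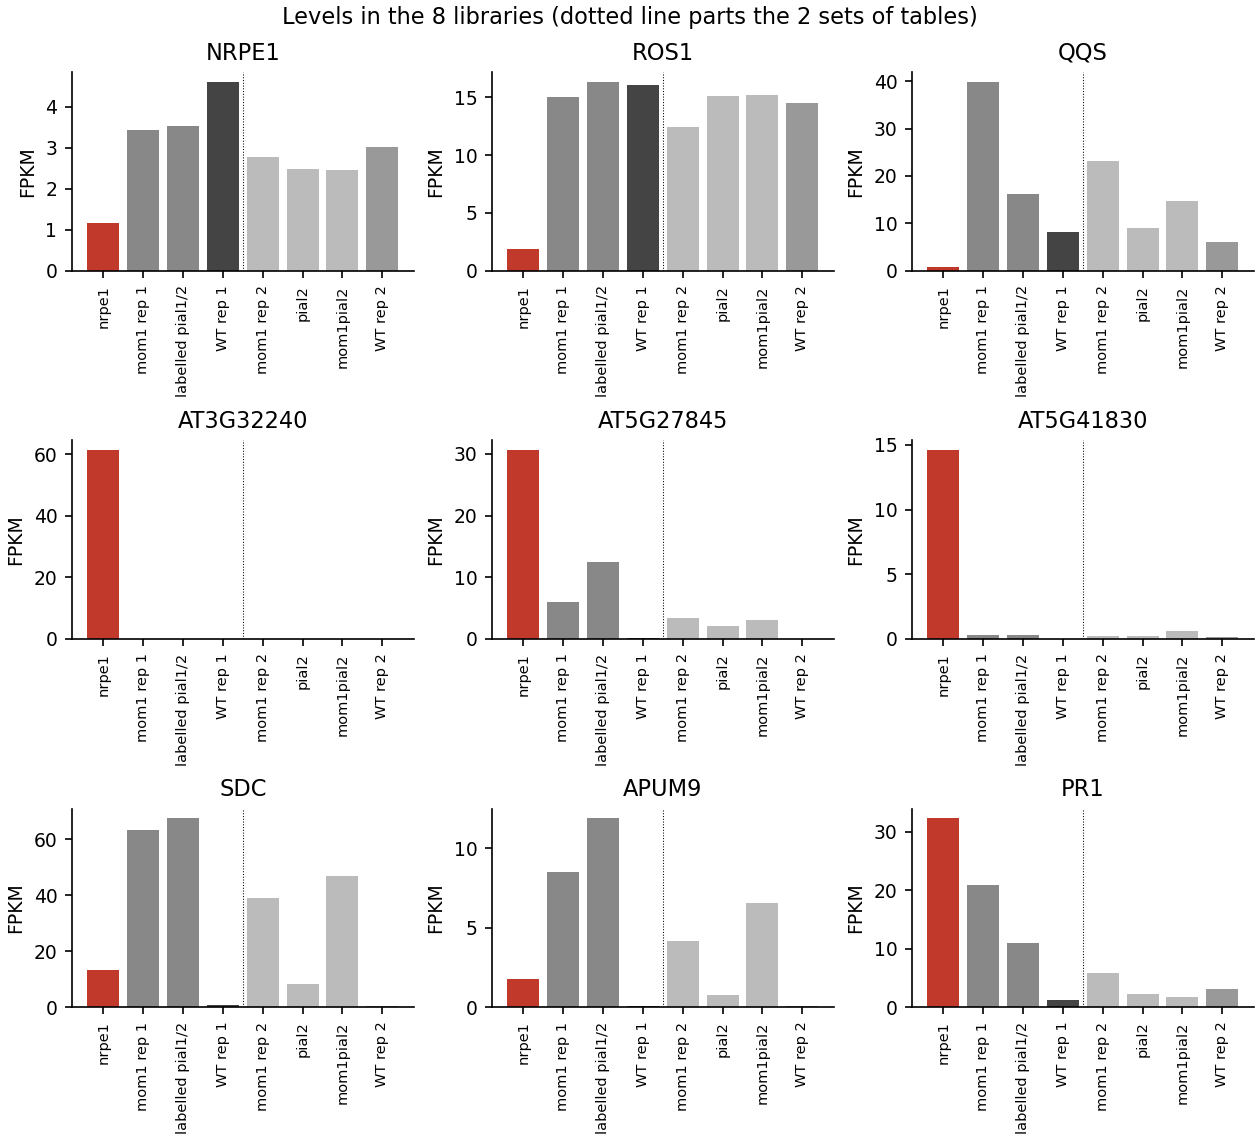
FPKM of 9 genes in the 8 libraries (one bar per library, nrpe1 in red), with the first set of tables left of the dotted line. NRPE1, ROS1 and QQS are lowest in nrpe1, at 1.16, 1.84 and 0.727 FPKM, and AT3G32240, AT5G27845, AT5G41830 and PR1 are highest there, at 61.5, 30.7, 14.6 and 32.3 FPKM, while SDC and APUM9 are higher in the mom1 libraries.

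Known silenced genes were in part higher. Of 16 listed loci 3 were measured: SDC, APUM9 and QQS. The filter favours raised loci here too, since SDC and APUM9 lay below 1 FPKM in WT replicate 1 and were measured through nrpe1 alone. SDC (AT2G17690, chromosome 2, 7682383 to 7684083), an F-box gene kept silent through methylation of the repeats shown above, stood at 13.2 FPKM in nrpe1, against 0.555 in WT replicate 1, with 0.350 in the other WT library. Its log2 ratio was 3.19, and the authors' deposited table lists a q-value of 0. In mom1 replicate 1 it was at 63.2 FPKM and in the library labelled pial1/2 at 67.6, so nrpe1 lay between those libraries and WT. APUM9, which encodes a pumilio RNA-binding protein, was at 1.79 FPKM in nrpe1 and 0.0931 in WT replicate 1 (log2 ratio 1.35), with 8.50 in mom1 replicate 1 and 11.9 in the library labelled pial1/2. FWA, a homeobox gene silent outside the endosperm, stayed under the limit for measurement, at 0.148 FPKM in nrpe1 and listed at 0 in WT replicate 1. The 8 listed ONSEN copies, heat-responsive retrotransposons, were all under 1 FPKM, the highest in nrpe1 at 0.115 against 0.208 in WT replicate 1.

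The transposon class holds 4483 entries (annotated as pseudogene, a few of which are not transposons), and 121 of them were measured. At least 2-fold higher in nrpe1 were 14 (11.6%, against 0.914% of all genes) and lower were 3 (2.48%, against 0.497%). The filter favours loci that were raised, since 11 of the 14 lay below 1 FPKM in WT replicate 1 and were measured through nrpe1 alone. Among the 104 members with at least 1 FPKM in WT replicate 1, 3 were higher and 3 lower. In the pericentromeric windows 11 of 63 measured members were higher, and on the arms 3 of 58. Among protein-coding genes 2.06% were higher in the pericentromeric windows and 0.506% on the arms. The filter acts here too, since 20 of the 29 higher pericentromeric genes and 43 of the 90 on the arms lay below 1 FPKM in WT replicate 1.

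AT3G32240 (chromosome 3, 13209736 to 13212216) was at 61.5 FPKM in nrpe1, against 0.0366 in WT replicate 1. It was at most 0.0496 in every other library, so this transcript was seen at such a level in nrpe1 alone, and no stretch of 50 bases in it has a second copy in the genome. AT5G27845 (chromosome 5, 9868348 to 9871836) was at 30.7 FPKM in nrpe1 and 0.203 in WT replicate 1, with 5.95 in mom1 replicate 1 and 12.4 in the library labelled pial1/2. AT5G35207 (chromosome 5, 13471730 to 13472482) was at 7.74 FPKM in nrpe1, listed at 0 in WT replicate 1 and at most 0.103 elsewhere. A different order was found for AT4G04293 (chromosome 4, 2076832 to 2077361), which was at 77.4 FPKM in nrpe1 and 3.07 in WT replicate 1, but at 420 in mom1 replicate 1 and 275 in the library labelled pial1/2. AT2G04460 (chromosome 2, 1547538 to 1548999) likewise was at 38.8 FPKM in nrpe1 and 2.097 in WT replicate 1, with 113 and 110 in those libraries. AT4G01980 (chromosome 4, 863351 to 864259) was at 2.25 FPKM in nrpe1 and listed at 0 in WT replicate 1, and 52.3% of its 50-base stretches have a second copy, so its fragments may be shared with other copies.

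SADHU3-2 (chromosome 3, 14749400 to 14750294), a retroposon of the SADHU family, was lower: 0.0804 FPKM in nrpe1 and 1.57 in WT replicate 1, with 1.55 to 7.43 in the other 6 libraries. AT3G29798 was at 0.307 and 1.84 in nrpe1 and WT replicate 1, and mom1 replicate 1 was lower still at 0.102, so nrpe1 was not the lowest. AT3G20365, an 84-base entry, was listed at 0 in nrpe1 and at 36.5 FPKM in WT replicate 1, but also at 0 in all 4 libraries of the other set, and the authors' deposited table gives it a q-value of 1.

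**Figure D3:**
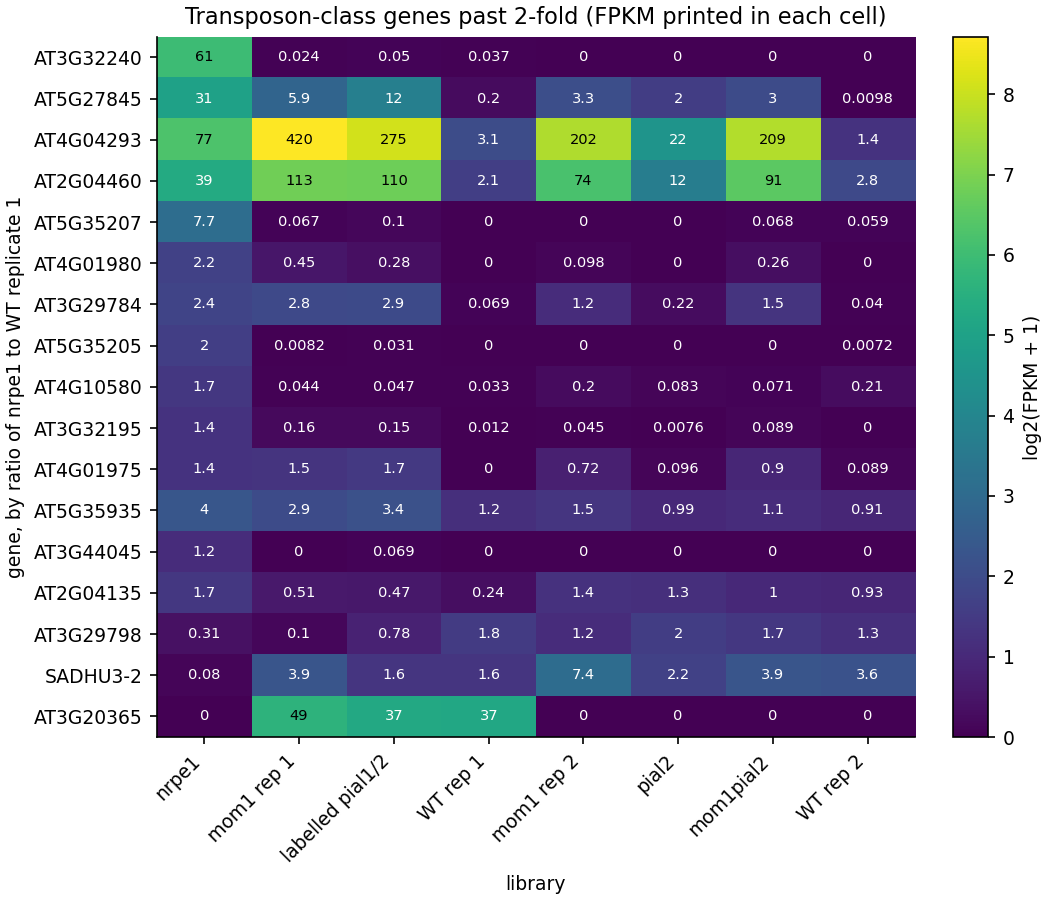
FPKM (printed) and log2(FPKM + 1) (colour) of the 17 transposon-class genes past 2-fold, rows ordered by the ratio of nrpe1 to WT replicate 1 and columns by library. The first 14 rows are higher in nrpe1 than in WT replicate 1 and the last 3 lower, and AT3G32240 stands at 61.5 FPKM in nrpe1 and near 0 in the others.

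Outside the transposon class, the highest ratios with a q-value below 0.05 in the authors' deposited table included short and uncharacterized genes. AT3G28899 (chromosome 3, 10902327 to 10902515), an uncharacterized protein gene of 189 bases, was at 103 FPKM in nrpe1 and listed at 0 in WT replicate 1, with 2.43 and 2.47 in mom1 replicate 1 and the library labelled pial1/2. AT5G41830 (chromosome 5, 16743762 to 16745334), an RNI-like superfamily gene, was at 14.6 FPKM in nrpe1 and 0.0234 in WT replicate 1 (log2 ratio 3.93), and at most 0.595 in any other library. Both were thus highest in nrpe1 of the 8 libraries by a wide margin. PR1 (AT2G14610), a marker of salicylic acid defence, was at 32.3 FPKM in nrpe1 and 1.25 in WT replicate 1 (log2 ratio 3.89), with 20.9 in mom1 replicate 1, 11.02 in the library labelled pial1/2 and 3.04 in WT replicate 2. Its level was thus above WT replicate 1 in all 3 libraries tabulated against it.

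Some neighbouring genes stood out together, though how many such pairs other sets of genes would form was not tested. Of 102 genes (0.616%) with a 2-fold ratio, a q-value below 0.05 in the authors' deposited table and an interval of their own, 18 formed 9 pairs that lie within 5000 bases of each other, and 8 of the pairs stood on the same side of WT. The pair AT1G33840, a LURP-one-like gene, and AT1G33850, a ribosomal protein S19 family gene, 2606 bases apart on chromosome 1, was at 37.8 and 25.6 FPKM in nrpe1, while in WT replicate 1 the first was at 0.0568 and the second listed at 0. RSU1 and AT3G48131 are short entries of 177 and 132 bases that lie 327 bases apart on chromosome 3. They were at 127 and 134 FPKM in nrpe1 and at 6.17 and 9.55 in WT replicate 1. In entries this short a few fragments give a high FPKM. Both lie on the minus strand, and whether they belong to the same transcript was not tested. Beside the transposon-class gene AT5G27845, the ribosomal protein gene AT5G27850 (L18e/L15 family, chosen after its values were seen, 1315 bases away on the same strand) was at 799 FPKM in nrpe1 and 318 in WT replicate 1. It was also at 517 in mom1 replicate 1 and 684 in the library labelled pial1/2.

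MADS-box genes AT1G59930 and AT1G59920, 1260 bases apart on chromosome 1, were at 17.7 and 3.99 FPKM in nrpe1, while in WT replicate 1 the first was at 0.427 and the second listed at 0. In each, 65.7% of the 50-base stretches have a second copy in the genome, so fragments may be shared. Next to APUM9, the receptor-like kinase gene AT1G35710 (chosen after its values were seen) was at 10.9 FPKM in nrpe1 and 3.48 in WT replicate 1. MRU1 and AT5G35480, chosen after their values were seen, were at 55.7 and 120 FPKM in nrpe1 and at 16.7 and 47.5 in WT replicate 1. One pair went opposite ways: AT1G56090, a tetratricopeptide repeat gene, was at 2.59 FPKM in nrpe1 and 9.45 in WT replicate 1, with 8.83 to 9.94 in the other 6 libraries. Its neighbour AT1G56100 was at 1.29 FPKM in nrpe1 and at 0 in WT replicate 1, and at most 0.0374 in the others.

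**Figure D4:**
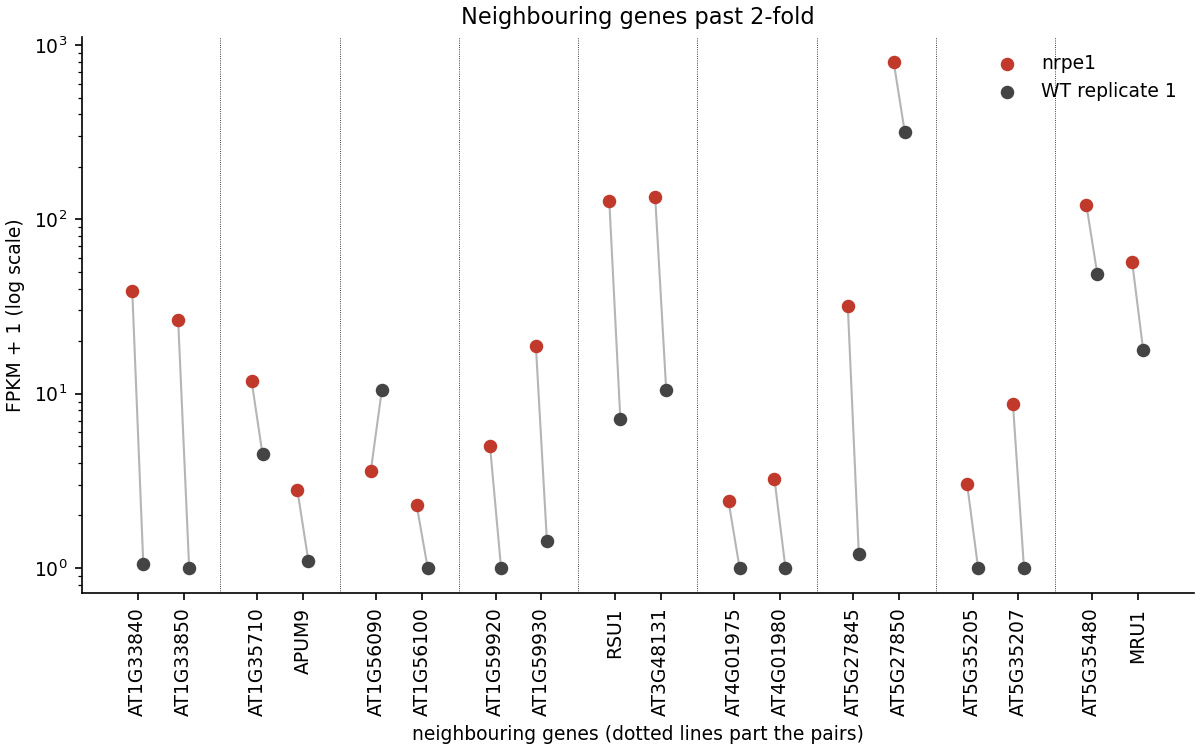
FPKM plus 1 (log scale) in nrpe1 (red) and WT replicate 1 (grey) of the 9 pairs of neighbouring genes past 2-fold, with a line joining the values of each gene. In 8 pairs both genes are higher in nrpe1, and in the pair AT1G56090 and AT1G56100 they differ in direction.

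Other lower genes included CYP702A5 (AT4G15393, chromosome 4, 8804120 to 8807203), a cytochrome P450, at 2.84 FPKM in nrpe1 and 12.1 in WT replicate 1 (log2 ratio -1.78). The other 6 libraries were at 6.36 to 9.44 FPKM, so nrpe1 was the lowest. AT5G11330, an FAD/NAD(P)-binding oxidoreductase gene, was at 11.2 FPKM in nrpe1 and 31.3 in WT replicate 1, with 29.1 to 43.8 in the others, and AT1G05030, a transporter gene of the major facilitator superfamily, was at 2.34 and 8.41. AT1G52000, a mannose-binding lectin gene, was at 11.2 FPKM in nrpe1, 32.3 in WT replicate 1 and 158.8 in WT replicate 2. AT2G18600, a ubiquitin-conjugating enzyme family gene, was at 0.735 FPKM in nrpe1 and 3.98 in WT replicate 1, and mom1 replicate 2 was next lowest at 1.29. AT2G06002, a noncoding RNA gene, was at 0.833 FPKM in nrpe1 and 3.67 in WT replicate 1, with 2.08 to 6.66 elsewhere, and AT2G13550 was at 1.77 and 5.73. AT4G16215 was listed at 0 in nrpe1 and at 2.97 FPKM in WT replicate 1, but at 0 in WT replicate 2 as well. HEI10, a crossover gene, was chosen after its values were seen because it shares its interval with MRD1. HEI10 stood at 2.37 FPKM in nrpe1 and 19.3 in WT replicate 1, and MRD1 at 0.296 and 2.96. In the library labelled pial1/2 they were at 6.41 and 0.933 FPKM, and fragments of the shared interval cannot be assigned to either gene with certainty.

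Genes of salicylic acid defence leaned upward. Of 17 listed genes 14 were measured, and all 14 had a ratio above 0, with a median of 0.44, whereas 49% of all measured genes did and their median was 0. This list and those that follow were chosen with earlier results of these data known, which can raise such shares by itself. At least NIMIN1, at 0.495 FPKM in WT replicate 1 and 1.57 in nrpe1, was measured through nrpe1 alone. Past 2-fold was 1 of the 14, PR1. The authors' deposited table called 5 higher, against 1.22% of all measured genes: PR1, PR2, WRKY70, PR5 and SARD1. PR2, a glucanase, was at 4.09 FPKM in nrpe1 and 1.89 in WT replicate 1, and 8.18 in WT replicate 2, so the WT libraries lie on both sides of it. WRKY70, a regulator of the defence, was at 57.7 FPKM in nrpe1, against 33.8 in WT replicate 1. Chosen after their values were seen, LURP1, PCC1 and HR4, all defence-associated genes, were at 36.9, 42.5 and 42.9 FPKM in nrpe1 and at 7.76, 12.2 and 15.9 in WT replicate 1. In mom1 replicate 1 they were at 18.7, 20.3 and 18.03 FPKM.

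Jasmonate and wounding genes also leaned upward, with 16 of 17 measured genes above 0 and a median of 0.35. None was past 2-fold, and the authors' deposited table called VSP1, AOC1, LOX2 and VSP2 higher. LOX2, an early enzyme of jasmonate synthesis, was at 280 FPKM in nrpe1 and 186 in WT replicate 1. Summed over the 21 listed genes, levels were 815 FPKM in nrpe1 and 606 in WT replicate 1. The sum was also 822 in mom1 replicate 1, and 589 in the library labelled pial1/2. Phosphate starvation genes had 10 of 11 above 0 and a median of 0.40, and the authors' deposited table called PS2, AT4 and SPX1 higher. Their summed level was 379.0 FPKM in nrpe1, 379.7 in mom1 replicate 1 and 347.2 in the library labelled pial1/2. In WT replicate 1 it was 293.3, so the higher level was not particular to nrpe1. PS2, a phosphatase, was at 15.4 FPKM in nrpe1 and 8.23 in WT replicate 1, but 53.0 in WT replicate 2, so the spread between WT libraries exceeds the difference.

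Copper genes had 5 of 7 below 0 and a median of -0.34, whereas 49.9% of all measured genes lay below 0. The list is small, and the authors' deposited table called 1 of the 7 higher and 1 lower. CSD2, a copper/zinc superoxide dismutase of plastids, was at 29.9 FPKM in nrpe1 and 73.2 in WT replicate 1 (log2 ratio -1.26). It was at 29.1 in mom1 replicate 1 and 68.7 in the library labelled pial1/2. FSD1, an iron superoxide dismutase, was the reverse, at 913 FPKM in nrpe1 and 668 in WT replicate 1. Iron uptake genes had a median of -0.28 with 9 of 12 below 0, and heat response genes -0.21 with 8 of 11 below 0, without a call in the authors' deposited table. In the abscisic acid, cold and drought list the median was 0.05 over 21 genes, 1 was past 2-fold (RD29B, at 6.42 FPKM in nrpe1 and 2.49 in WT replicate 1, and 32.4 in WT replicate 2), and the authors' deposited table called RD29B, GOLS3 and ERD10 higher and RAB18 lower.

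Other lists stayed near 0. Morning clock genes had a median of -0.03 over 12 genes and day and evening clock genes of -0.10 over 15, of which 12 were below 0, and the authors' deposited table called none of either. Photosynthesis genes of green tissue had a median of -0.06 over 20 genes, with summed levels of 87409 FPKM in nrpe1 and 92410 in WT replicate 1, and root markers of -0.04 over 9, with 109.2 and 111.4 FPKM in the same libraries. Seed and flower markers were each measured for 1 gene, and the summed levels were 2.38 and 5.67 FPKM in nrpe1 and 2.42 and 4.50 in WT replicate 1. Medians for the mitotic cell cycle (12 genes), shade growth (9), touch and rapid stress (17) and flowering time (10) were 0.04, -0.05, 0.11 and -0.13. The authors' deposited table called XTR7 and IAA29 of shade growth and PHI-1 of the touch genes lower. Chloroplast and mitochondrial entries, 279 in all, are listed at 0 in both libraries and gave no check of RNA quality. The part of these markers in the results above was not tested.

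**Figure D5:**
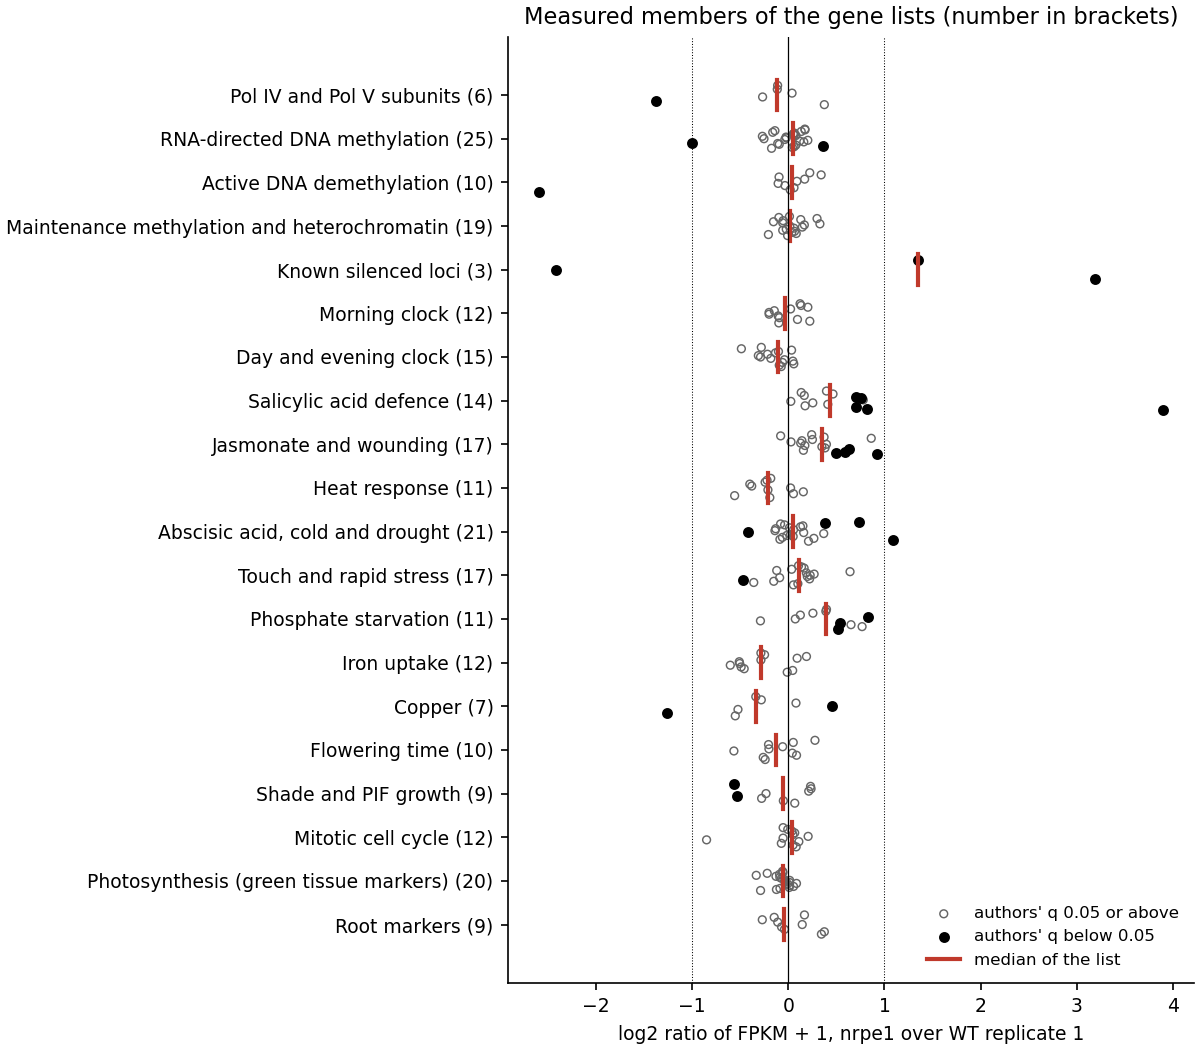
Log2 ratio of FPKM plus 1, nrpe1 over WT replicate 1, of each measured member of 20 gene lists; filled points have an authors' q-value below 0.05, red bars are list medians and dotted lines mark 2-fold. The salicylic acid, jasmonate and phosphate lists have medians of 0.44, 0.35 and 0.40, and ROS1 and QQS stand alone at -2.59 and -2.42.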

How the data were processed

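Per the labels, poly(A)-enriched RNA of 10-day-old seedlings was sequenced. Per the submitters' processing notes, TopHat2 2.0.12, Bowtie, Cufflinks 2.2.1, Cuffdiff and the TAIR10 build were used, and read length, strand and filters are not given in the sources used here. Per the file headers, the authors deposited FPKM values for 2 libraries per table, and a p-value and q-value for each gene from their test of the 2 libraries. No counts were used, so the depth in fragments is unknown and no interval is given.

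From these, log2 ratios were computed on FPKM with a pseudocount of 1, over entries with status OK or NOTEST and at least 1 FPKM in either library (Python 3.11.15, pandas 2.3.3). The ratio and 2-fold call were tested on simulated data without noise or low genes, which checks the arithmetic only. Entries were matched to the TAIR10.1 annotation by locus (33389 of 34133), and 3349 measured entries share an interval with another. Pericentromeric windows were set as fixed ranges on each chromosome. Named genes were NRPE1, the 12 highest and 12 lowest ratios with an authors' q-value below 0.05 and an interval of their own, up to 6 members of each list, the highest and lowest transposon-class genes, and ROS1, SDC, FWA, QQS and APUM9. Genes and lists were chosen with earlier results of these data known. Alternatives tried were the pseudocount, the filter, test status, centring, shared intervals, entry length and the authors' q-value.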

Additional observations from a re-analysis of the deposited data

How the results depend on the processing

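No paired analysis was possible because nrpe1 has 1 library, and for the same reason no library could be left out. Counts of genes higher and lower by at least 2-fold, and of transposon-class genes higher and lower, were 182, 99, 14 and 3. They were identical with no filter on low values, with status OK only and with centred ratios, none of which could change them. A gene below 1 FPKM in both libraries cannot reach 2-fold with a pseudocount of 1. All 19904 measured genes have status OK, and the median ratio is 0. With a pseudocount of 0.1, 291 genes were higher and 6 transposon-class genes lower. With a pseudocount of 5 the 4 counts were 81, 50, 5 and 1, and with at least 5 FPKM in either library 108, 59, 5 and 1. A larger pseudocount or filter counts fewer low genes by its construction. Among entries of at least 200 bases, a limit chosen after seeing the data, 44 were lower. Among entries with an authors' q-value below 0.05, also chosen after seeing the data, 87 were higher and 20 lower, with 1 lower in the transposon class. No setting could change the direction of the 24 genes with the highest and lowest ratios. Direction rests only on which library has the higher FPKM, and centring used a median of 0. The stricter FPKM filter retained 20 of the 24, and the length limit of 200 bases retained 21. Of the 24, 17 stayed past 2-fold with a pseudocount of 5. There NRPE1 stood at -0.64, APUM9 at 0.41, AT1G56090 at -0.93 and AGO9 at -0.28. The median of the salicylic acid list ranged from 0.25 with a pseudocount of 5 to 0.75 over the 5 members with an authors' q-value below 0.05, and was 0.69 over all 14 with a pseudocount of 0.1.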

Other observations

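Some gene families chosen after their values were seen held members on both sides. Of 24 measured mannose-binding lectin genes 2 were at least 2-fold higher in nrpe1 and 1 lower, against 0.914% and 0.497% of all measured genes. AT1G60110 was at 8.68 FPKM in nrpe1 and 1.81 in WT replicate 1, and JAL23 at 7.28 and 2.61, while AT1G52000 was the lower one. JAL23 was at 17.02 FPKM in WT replicate 2, above its level in nrpe1. Chosen in the same way, ESM1, a modifier of glucosinolate breakdown, was at 1075 FPKM in nrpe1 and 398 in WT replicate 1, and MBP1, a myrosinase-binding protein gene, at 43.3 and 14.5. In both cases nrpe1 was the highest of the 8 libraries. Of 14 measured MADS-box genes 3 were at least 2-fold higher and 0 lower. All 3, AT1G59930, AT1G59920 and AT5G35120, lay below 1 FPKM in WT replicate 1 and were measured through nrpe1 alone, and the authors' deposited table did not call AT5G35120 (q-value 0.297). Of 20 measured plant defensin genes 1 was higher and 1 lower. PDF1.2c was at 8.70 FPKM in nrpe1 and 3.01 in WT replicate 1, and AT1G13608 at 1.12 and 3.92. The authors' deposited table did not call AT1G13608 (q-value 0.990). It was at 33.5 FPKM in WT replicate 2, so the spread between WT libraries exceeds the difference.

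Small noncoding genes were often past 2-fold, where 0.914% of all measured genes were higher and 0.497% lower. Of 11 measured tRNA entries 2 were at least 2-fold higher in nrpe1 and 7 lower. Of 71 measured microRNA entries 16 were at least 2-fold higher in nrpe1 and 18 lower, and of 55 small nucleolar RNA entries 9 were higher and 12 lower. The authors' deposited table called none of these. The lncRNA class, with 160 measured entries, had 0 past 2-fold. By chromosome, the share of measured genes at least 2-fold higher in nrpe1 was 0.841%, 1.19%, 1.01%, 0.692% and 0.883% on chromosomes 1 to 5.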
